A study of Mus musculus with 12 samples.

Results

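The response of wild-type (WT) murine hip cartilage to injury was described on 6 of the 12 Illumina mouse BeadChip arrays of the series, 3 of WT control and 3 of WT injured cartilage, across all 14280 genes of the normalized table. Attention was given to genes outside metabolism, namely transcription factors, signalling, matrix and immune genes. Both groups came from WT C57BL6 mice of 4 to 6 weeks by the sample labels, and from mice of 5 to 6 weeks by the study's methods. The femoral epiphysis was avulsed from the freshly culled animal, which is itself the injury, and each replicate pooled 6 hips of 3 mice. Control hips were snap-frozen at once, and injured hips were first cultured for 4 h in medium without serum. Injury and 4 h of culture therefore cannot be told apart, and the changes below are those between these groups. The other 6 arrays hold the same conditions in mice without Mapk9 (KO), the gene of the kinase JNK2.

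Chondrocytes build and turn over the cartilage matrix, whose collagen network resists tension and whose aggrecan holds water under load. When the tissue is cut or torn, MAP kinases and NF-kB signalling are known to be activated within minutes. They induce early genes, many of them transcription factors, and later cytokines, growth factors and proteases. The femoral epiphysis of a young mouse also holds growing bone and marrow, and muscle and synovial tissue are attached nearby.

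At 4 h post injury, 1074 genes were upregulated (7.52% of those tested) and 1026 were downregulated (7.18%) by limma, which here means a change of more than 2 times with an adjusted p under 0.05. The level of a gene was read at its probe with the highest mean, on the log2 scale of the deposited values. The groups did not overlap for 2071 of the 2100 called genes, and the smallest two-sided p that exact permutation of 3 and 3 arrays allows is 0.1. Of the called genes, 466 were undetected on all arrays of 1 group, for which the fold is a lower bound, and 11 were undetected on all 6 arrays, where no fold is given. Between 17368 and 18969 probes were detected per WT array. The chondrocyte label was borne by the markers: Acan, Col2a1, Comp, Hapln1, Matn1 and Sox9 were detected on all 6 arrays. Marker genes of marrow and muscle were also present. Hemoglobin (Hbb-b1) lay between 13.65 and 14.57 and the neutrophil enzyme Mpo between 13.01 and 14.26, and Col2a1 between 13.46 and 14.52, levels of different probes that cannot be compared.

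By theme, transcription factors leaned most to one side. Of 154 measured members of the transcription factor lists, 43 were upregulated (27.9%) and 9 downregulated (5.84%). Signalling lists had 60 of 289 upregulated and 35 downregulated, and immune lists 49 of 215 upregulated and 21 downregulated. Matrix lists had 32 of 201 upregulated and 37 downregulated. The median log2 fold change was 0.32 for the transcription factors, 0.01 for signalling, 0.21 for the immune lists and 0.11 for the matrix, beside -0.02 over all genes.

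**Figure D1:**
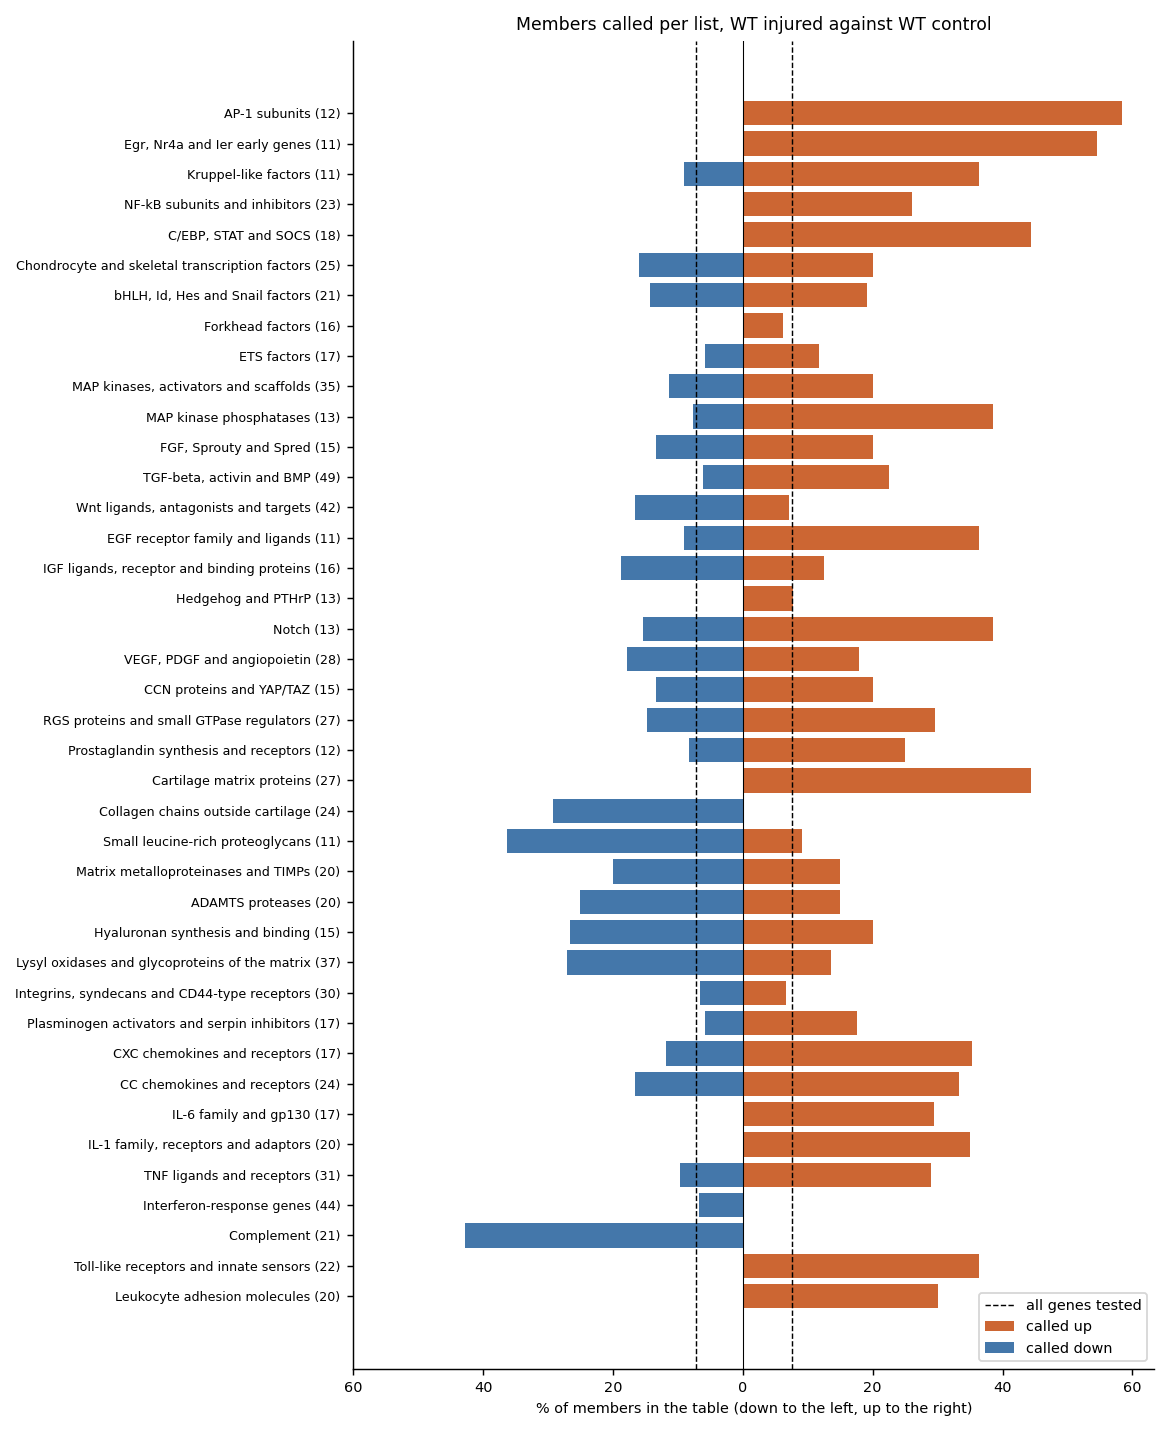
Share of the measured members of each list called up (orange, to the right) or down (blue, to the left) in WT injured against WT control cartilage, in % of the members in the table, whose number is given in brackets. Dashed lines mark the 7.52% and 7.18% of all genes tested. Of the lists plotted, AP-1 subunits have the largest share up (58.3%) and complement genes the largest share down (42.9%).

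AP-1, the dimer of Fos and Jun proteins that is the main target of JNK, had 7 of its 12 measured subunits upregulated and none downregulated (median log2 fold change 2.07). Fos was at 10.24, 9.51 and 9.93 on the control arrays and at 12.28, 12.44 and 11.92 on the injured arrays, a log2 fold change of 2.32 (SE 0.24, adjusted p = 0.000138). Junb was at 10.36, 9.82 and 9.59 in control and at 12.57, 12.92 and 12.19 in injured cartilage (log2 fold change 2.64, SE 0.27, adjusted p = 0.000115). Atf3, a stress-induced partner of Jun, was undetected on all control arrays (4.68, 5.12 and 5.25) and stood at 10.23, 10.61 and 10.19 post injury. In each of these genes every injured array lay above every control array. Atf3 was at least 22.6-fold higher in injured cartilage (adjusted p = 9.97e-07), the largest change of the family. Jun rose by 2.04, Fosb by 2.31 and Batf3, detected on 2 of 3 control arrays, by 2.19 on the log2 scale. The family did not move evenly. Jund, which is known for steady expression, had a difference of 0.51 (SE 0.22, adjusted p = 0.124), and Fosl2 passed the adjusted p but not the fold limit, at 0.93 (SE 0.22, adjusted p = 0.0132) at its main probe, while 1 of its 3 probes passed upwards.

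**Figure D2:**
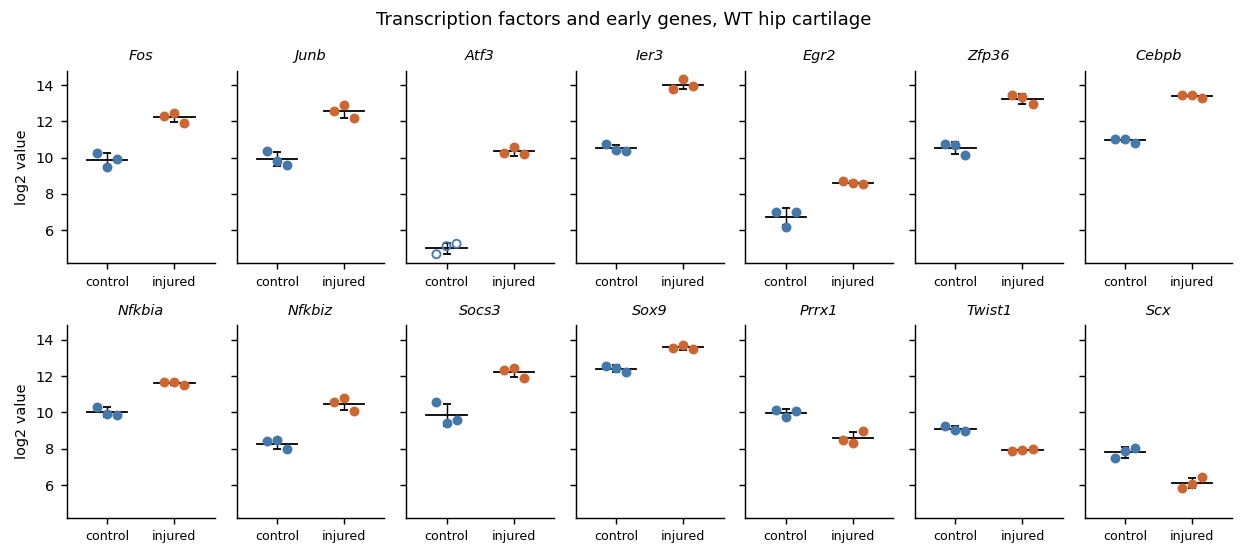
Log2 values of 14 transcription factors and early genes on the 3 control (blue) and 3 injured (orange) WT arrays. Points are arrays, open where the probe was undetected on every array of the group, black lines are means and bars are SD over 3 arrays. The injured values lie above the controls for all except Prrx1, Twist1 and Scx, which lie below.

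Of the other early genes, 6 of 11 were upregulated and none downregulated. Ier3, a stress-induced survival gene, was at 13.80, 14.31 and 13.95 post injury against 10.74, 10.44 and 10.37 in control (log2 fold change 3.50, SE 0.22, adjusted p = 5.91e-06). Zfp36, which encodes tristetraprolin, a protein that marks cytokine mRNAs for decay, rose from 10.76, 10.71 and 10.16 to 13.44, 13.32 and 12.93 (log2 fold change 2.69, SE 0.24, adjusted p = 5.55e-05). Egr2 rose by 1.87 (SE 0.25, adjusted p = 0.000580). The groups of all 3 genes stood clear of each other. Egr1 had a log2 fold change of 1.19 (SE 0.24, adjusted p = 0.00558), from control values that were already between 11.51 and 12.32. Its call did not hold without WT control replicate 2, with neqc or with quantile normalization without background correction. Nr4a2, an orphan nuclear receptor, did not pass (0.23, SE 0.22, adjusted p = 0.486). Nr4a1 and Nr4a3 have probes outside the normalized table and are not analysed here. Krüppel-like factors had 4 of 11 upregulated, of which Klf5 rose most (2.02, SE 0.30, adjusted p = 0.00102), followed by Klf6 (1.23, SE 0.21, adjusted p = 0.00240). Without WT control replicate 2, 2 of this family were upregulated, and Klf6 did not pass after quantile normalization without background correction. Klf1, the erythroid factor, fell by 1.23 (SE 0.20, adjusted p = 0.00200).

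Egr and Zfp36 genes are textbook targets of serum response factor, which binds the CArG box. The stretches of 120 bases before the annotated start of Zfp36 (chr7:28379229-28379348, minus strand) and of an Egr2 transcript (chr10:67537446-67537565, plus strand) are shown because both hold this motif, in capitals. All promoter sequences are RefSeq's (build GRCm38.p6), 5′ to 3′ on the strand of the gene, for genes picked after motif matches were seen.
Zfp36: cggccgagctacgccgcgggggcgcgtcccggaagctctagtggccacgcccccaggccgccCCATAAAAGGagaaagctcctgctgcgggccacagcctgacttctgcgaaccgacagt
Egr2: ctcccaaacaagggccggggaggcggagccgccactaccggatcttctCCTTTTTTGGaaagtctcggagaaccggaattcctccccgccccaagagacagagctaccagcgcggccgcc
The motif starts 58 bases before the start of Zfp36 and 72 bases before that of Egr2. A CArG box, on either strand, was found in 1.63% of all 32851 promoters of 300 bases around the start, in 1.46% of those of the genes tested, in 1.23% of the 977 promoters of upregulated genes and in 2.21% of the 858 promoters of downregulated genes. It was present in 5 of the 9 promoters of the upregulated early genes, 4 of which were overlapping or neighbouring starts of Egr2. A match is a description of the letters and not a shown binding site.

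NF-kB factors turn on cytokine genes, and some of their inhibitors are among their own targets. The list of 23 measured subunits and inhibitors had 6 upregulated and none downregulated. Nfkbia, the inhibitor that holds NF-kB in the cytoplasm, was at 10.32, 9.92 and 9.84 in control and at 11.70, 11.69 and 11.52 post injury (log2 fold change 1.61, SE 0.21, adjusted p = 0.000462). Nfkbiz rose by 2.21 (SE 0.25, adjusted p = 0.000200) and Bcl3 by 1.88 (SE 0.22, adjusted p = 0.000255), both of which encode nuclear IkB proteins that modulate transcription by NF-kB. Tnfaip3, which encodes the deubiquitinase A20, was detected on 2 of 3 control arrays and rose by 2.02 (SE 0.19, adjusted p = 8.09e-05). Of the subunits, Nfkb2 was at least 1.90-fold and Rel at least 1.47-fold higher post injury, both undetected in control. Neither passed after quantile normalization without background correction. Rela and Nfkb1, the subunits of the classical dimer, did not pass, with log2 differences of 0.45 (SE 0.19, adjusted p = 0.119) and 0.58 (SE 0.23, adjusted p = 0.0890). The start of Nfkbia (chr12:55492648-55492767, minus strand) is shown with its kappa B site in capitals, because an inhibitor whose promoter holds the site is the textbook case of feedback.
Nfkbia: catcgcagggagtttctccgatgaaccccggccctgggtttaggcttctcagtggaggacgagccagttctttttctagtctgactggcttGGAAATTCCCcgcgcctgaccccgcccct
Among the upregulated members of this list, 7 of 8 promoters of 5 genes held a kappa B site, several of them overlapping starts of Nfkb2.

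C/EBP, STAT and SOCS genes had 8 of 18 upregulated and none downregulated. Cebpb, which drives acute-phase and inflammatory genes, was at 11.01, 11.03 and 10.83 in control and at 13.45, 13.45 and 13.30 post injury (log2 fold change 2.44, SE 0.19, adjusted p = 2.42e-05). Socs3, the inhibitor of gp130 signalling, was at 10.55, 9.42 and 9.59 in control and at 12.33, 12.43 and 11.91 post injury (2.37, SE 0.30, adjusted p = 0.000421). Neither gene overlapped between groups. Stat3 itself missed the fold limit at 0.98 (SE 0.21, adjusted p = 0.00786). Cebpe, which rose by 2.15 (SE 0.28, adjusted p = 0.000475), is a factor of granulocyte precursors and moved with the neutrophil markers described further down.

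The transcription factors of the skeleton split. Sox9, the master factor of chondrocytes, was at 12.58, 12.42 and 12.20 in control and at 13.56, 13.73 and 13.47 post injury (log2 fold change 1.19, SE 0.20, adjusted p = 0.00210), and its partner Sox5 rose by 1.59 (SE 0.27, adjusted p = 0.00235). The call of Sox9 did not hold with neqc or with quantile normalization without background correction. Sox6 had a difference of -0.44 (SE 0.23, adjusted p = 0.195). Foxa3, a factor of the hypertrophic chondrocyte programme, rose by 2.46 (SE 0.21, adjusted p = 4.82e-05), in the same cartilage in which Ihh and Col10a1 rose. Runx2, the factor of osteoblasts and hypertrophic chondrocytes, was detected on 1 of 3 control arrays and rose by 1.34 (SE 0.29, adjusted p = 0.00766), a call that ended within the arrays whose label code has the number 1 and after quantile normalization without background correction. Prrx1, Prrx2, Dlx6 and Sp7 of this list were downregulated, as were Twist1 and Scx, Prrx2 not within the arrays whose label code has the number 1 or with quantile normalization without background correction. Prrx1 was at 10.13, 9.76 and 10.06 in control and at 8.48, 8.31 and 8.97 post injury (-1.40, SE 0.23, adjusted p = 0.00198). Twist1 fell by 1.18 (SE 0.19, adjusted p = 0.00172), the tendon factor Scx by 1.68 (SE 0.24, adjusted p = 0.000750) and the osteoblast factor Sp7 by 1.14 (SE 0.20, adjusted p = 0.00280). In total 5 of 25 members rose and 4 fell, and of the bHLH, Id, Hes and Snail factors 4 of 21 rose (2 without WT control replicate 2) and 3 fell. Scx and Twist1 did not pass after quantile normalization without background correction. Scx also stands on the list of fibroblast and synovial lining markers, of which 8 of 17 fell, and the part of those cells was not tested. The stress-responsive repressor Bhlhe40 rose by 1.46 (SE 0.22, adjusted p = 0.00103). The forkhead list had 1 of 16 upregulated, or 3 without WT control replicate 1. The forkhead factors Foxa2 and Foxa3 are counted in the skeletal list and were upregulated there. Foxa2 was undetected in control and at least 1.06-fold higher, not with neqc or with quantile normalization without background correction.

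In the MAP kinase pathway members differed in direction. Mapk13, the p38 delta kinase, was at 6.55, 7.09 and 6.42 in control and at 9.399, 9.10 and 8.55 post injury (log2 fold change 2.33, SE 0.27, adjusted p = 0.000263), with no overlap of the groups. Mapk12 (p38 gamma) was downregulated and Mapkapk3, a kinase downstream of p38, upregulated. Mapk3 (ERK1), Mapk8 (JNK1) and Mapk14 (p38 alpha) did not pass, with log2 differences between -0.61 and 0.21. The Gadd45 genes, stress sensors whose proteins bind and activate MAP3K4, rose together. Gadd45b was at 7.64, 7.38 and 8.24 in control and at 10.77, 11.11 and 11.26 post injury (log2 fold change 3.29, SE 0.26, adjusted p = 2.66e-05). Gadd45g rose by 2.03 (SE 0.20, adjusted p = 8.93e-05) and Gadd45a by 1.91 (SE 0.21, adjusted p = 0.000188). Map3k8, the kinase Tpl2 upstream of ERK, rose by 1.53 (SE 0.27, adjusted p = 0.00258), though not after quantile normalization without background correction. Of 35 measured kinases, activators and scaffolds 7 were upregulated and 4 downregulated, or 2 downregulated without WT control replicate 3. Of 13 Dusp phosphatases, which dephosphorylate MAP kinases, 5 were upregulated and Dusp26 was downregulated. The call of Dusp26 ended without injured array 1 of WT, within the arrays whose label code has the number 1, with neqc, with quantile normalization without background correction and by the methods' t-test. Dusp26 was at 6.38, 6.56 and 8.95 in control, highest on control array 3 as were the summed skeletal muscle markers, whose part was not tested. Dusp14 rose by 1.99 (SE 0.22, adjusted p = 0.000213), Dusp2 by 1.33 (SE 0.24, adjusted p = 0.00291) and Dusp1 by 1.33 (SE 0.21, adjusted p = 0.00157). Dusp6, a common readout of FGF and ERK activity, did not pass (SE 0.23, adjusted p = 0.998), at 10.74 to 11.34 in control and 10.88 to 11.32 post injury. Dusp4 gave no single answer, since its main probe had a difference of -0.39 (SE 0.24, adjusted p = 0.265) while 2 of its 3 probes passed upwards.

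In the TGF-beta family both activin subunit genes rose. Inhba, the activin A subunit, was at 9.11, 8.95 and 8.90 in control and at 13.86, 14.09 and 13.78 post injury, a log2 fold change of 4.93 (SE 0.19, adjusted p = 9.97e-07) and the fourth largest rise among the called genes detected on all 6 WT arrays and outside metabolism. Inhbb, detected on 1 of 3 control arrays, rose by 3.58 (SE 0.30, adjusted p = 4.05e-05). Gdf15, a stress-induced distant member, was undetected in control and at least 11.1-fold higher post injury (adjusted p = 1.12e-05), and Gdf5, the joint morphogen, was at least 3.14-fold higher (adjusted p = 8.84e-05). The BMP antagonist Nog was at least 1.98-fold higher (adjusted p = 0.000120). Groups did not overlap for any of these genes, and Gdf5 and Nog did not pass after quantile normalization without background correction. The TGF-beta ligands did not pass: Tgfb1 had a difference of 0.40 (SE 0.25, adjusted p = 0.291), Tgfb2 of 0.61 (SE 0.30, adjusted p = 0.173) and Tgfb3 of -0.01 (SE 0.28, adjusted p = 0.984). Their receptor gene Tgfbr1 fell from 12.57, 12.73 and 11.69 to 10.73, 11.01 and 10.75 (-1.50, SE 0.28, adjusted p = 0.00359). Over the family 11 of 49 rose and 3 fell, and the number that fell was 5 without WT control replicate 2 or without replicate 3, and 7 within the arrays whose label code has the number 1.

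In the EGF receptor list 4 of 11 were upregulated (Hbegf, Areg, Nrg1 and Errfi1) and Egfr was downregulated, Nrg1 not with neqc or with quantile normalization without background correction. Nrg1 was undetected in control, detected on 2 of 3 injured arrays and at least 1.12-fold higher. The bounds of Nrg1 and Areg do not reach a change of 2 times. Hbegf was at 9.32, 8.18 and 8.83 in control and at 11.14, 11.23 and 10.98 post injury (log2 fold change 2.34, SE 0.28, adjusted p = 0.000292). Areg was undetected in control and at least 1.07-fold higher post injury (adjusted p = 3.56e-05). Errfi1, which encodes Mig6, a feedback inhibitor that binds the receptor, was at 12.16, 11.08 and 11.29 in control and at 13.91, 14.03 and 13.70 post injury (2.37, SE 0.28, adjusted p = 0.000294). Egfr itself was at 10.56, 10.50 and 10.15 in control and at 8.50, 8.98 and 8.50 post injury (-1.74, SE 0.22, adjusted p = 0.000429), and 2 of its 4 probes passed. No injured value of these genes lay within the control values. Areg did not pass after quantile normalization without background correction.
The starts of Areg (chr5:91139479-91139598, plus strand) and of an Errfi1 transcript (chr4:150854950-150855069, plus strand) are shown because each holds a full cAMP response element, TGACGTCA (in capitals), the site of CREB and ATF factors, 61 and 51 bases before the start.
Areg: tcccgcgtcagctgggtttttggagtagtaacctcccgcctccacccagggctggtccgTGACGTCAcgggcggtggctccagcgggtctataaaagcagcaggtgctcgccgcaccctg
Errfi1: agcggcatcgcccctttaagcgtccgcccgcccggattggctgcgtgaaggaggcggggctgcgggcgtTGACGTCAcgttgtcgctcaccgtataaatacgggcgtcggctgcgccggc
The element was found in 1.79% of all promoters, in 2.77% of those of the genes tested, in 3.17% of those of upregulated genes and in 1.40% of those of downregulated genes.

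Other growth factor lists also had members called in both directions. In the FGF list 3 of 15 rose and 2 fell, or 1 fell without WT control replicate 1. Fgf2, stored in the pericellular matrix and known to be released on cartilage injury, was at least 1.34-fold higher (adjusted p = 0.00344) and Fgf21 at least 2.44-fold higher (adjusted p = 1.45e-05), both undetected in control. Fgfr2 was at 12.36, 12.21 and 11.92 in control and at 10.30, 10.76 and 10.52 post injury (-1.63, SE 0.22, adjusted p = 0.000523). Fgfr1 (0.12, SE 0.25, adjusted p = 0.762) and Fgfr3 (0.03, SE 0.37, adjusted p = 0.965) did not pass. The call of Fgf2 did not hold after quantile normalization without background correction. Vegfa, the main angiogenic factor, rose from 9.71, 9.47 and 9.70 to 12.07, 12.12 and 11.83 (2.38, SE 0.20, adjusted p = 3.54e-05). Pdgfra, a receptor of mesenchymal cells, fell from 11.27, 10.80 and 10.60 to 8.78, 9.39 and 8.86 (-1.88, SE 0.25, adjusted p = 0.000561). In this list 5 of 28 rose and 5 fell, or 2 fell without WT control replicate 1. Igf1, the main anabolic factor of cartilage, was at 11.30, 11.50 and 10.76 in control and at 8.94, 9.34 and 9.16 post injury (-2.04, SE 0.24, adjusted p = 0.000267), with all 3 of its probes passing downwards. Its binding protein Igfbp3 rose by 1.29 (SE 0.25, adjusted p = 0.00427), not so after quantile normalization without background correction.

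Ihh, the ligand of prehypertrophic chondrocytes, was at 8.55, 8.02 and 8.52 in control and at 10.48, 10.62 and 10.69 post injury (log2 fold change 2.24, SE 0.21, adjusted p = 8.84e-05). It was the single called gene of 13 in the hedgehog list, and its receptor and target Ptch1 had a difference of -0.15 (SE 0.20, adjusted p = 0.624). The Wnt list leaned down, with 3 of 42 upregulated and 7 downregulated. Wnt5a, a ligand of the branch without beta-catenin, fell from 9.26, 8.74 and 8.56 to 7.05, 7.42 and 7.35 (-1.58, SE 0.24, adjusted p = 0.00106). The gene of the secreted Wnt antagonist Frzb rose by 1.65 (SE 0.25, adjusted p = 0.00124). Without WT control replicate 1, 5 Wnt genes rose. Axin2, the general target of beta-catenin, missed the fold limit at -0.82 (SE 0.21, adjusted p = 0.0184). In the Notch list 5 of 13 rose, among them the ligand gene Dll1 (1.77, SE 0.24, adjusted p = 0.000592), and 2 fell, or 1 without control array 1, control array 3 or injured array 3 of WT. Notch3 fell by 1.49 (SE 0.21, adjusted p = 0.000800), and neither Dll1 nor Notch3 passed after quantile normalization without background correction. Of the genes linked to mechanical load, the calcium channel gene Trpv4 rose by 1.29 (SE 0.21, adjusted p = 0.00191), and Yap1 did not pass (0.28, SE 0.21, adjusted p = 0.359). Ccn1 rose by 1.13 (SE 0.31, adjusted p = 0.0245), a call that ended without control array 2 or injured array 1 of WT, within the arrays whose label code has the number 1 and with quantile normalization without background correction, and Ccn2 missed the fold limit at 0.79 (SE 0.23, adjusted p = 0.0284). Of the regulators of G proteins, Rgs16 rose from 6.40, 6.63 and 6.36 to 10.06, 10.31 and 9.79 (3.59, SE 0.21, adjusted p = 3.93e-06), and Rgs5, a pericyte gene, fell by 2.21 (SE 0.24, adjusted p = 0.000170). The prostaglandin E synthase gene Ptges, detected on 1 of 3 control arrays, rose by 2.25 (SE 0.27, adjusted p = 0.000283), while Ptgs2 has probes only outside the normalized table and is not analysed here.

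Calls among matrix genes differed by family. Of 27 measured cartilage matrix proteins, 12 were upregulated and none downregulated (median log2 fold change 0.85). Of 24 collagen chains outside cartilage, none was upregulated and 7 were downregulated (median -0.35). Acan, the core protein of aggrecan, was at 11.85, 10.07 and 11.57 in control and at 13.12, 13.30 and 13.16 post injury (log2 fold change 2.03, SE 0.39, adjusted p = 0.00444). Matn1 was at 10.15, 8.88 and 10.15 in control and at 12.67, 13.12 and 12.86 post injury (3.16, SE 0.33, adjusted p = 0.000135). Col10a1, the collagen of hypertrophic cartilage, was at 11.04, 9.73 and 10.93 in control and at 13.39, 13 and 13.23 post injury (2.64, SE 0.33, adjusted p = 0.000356). In all 3 genes control replicate 2 was the lowest array and no groups overlapped. Hapln1, the link protein, rose by 1.36 (SE 0.21, adjusted p = 0.00136) and Col9a2 by 1.55 (SE 0.25, adjusted p = 0.00159). Other defining members did not pass: Col2a1 was between 13.46 and 14.29 in control and between 14.09 and 14.52 post injury (0.54, SE 0.25, adjusted p = 0.150), and lubricin, Prg4, had a difference of 0.34 (SE 0.25, adjusted p = 0.353). Comp passed (1.08, SE 0.30, adjusted p = 0.0264), but not without WT control replicate 2, without any single injured array, within the arrays whose label code has the number 1, with neqc or with quantile normalization without background correction. Within the arrays whose label code has the number 1, 7 cartilage matrix genes were upregulated in place of 12. Chondrocyte markers share genes with this list: 7 of 12 rose, and of these only Sox9 is not on it. None was undetected, and their summed antilog level, in units of 1000, was 56.9 to 90.8 in control, lowest in control replicate 2, and 114 to 137 post injury. Skeletal muscle markers fell on the same arrays, from 76.0 to 117 down to 10.7 to 37.9. The part of the cell makeup in these changes was not tested.

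**Figure D3:**
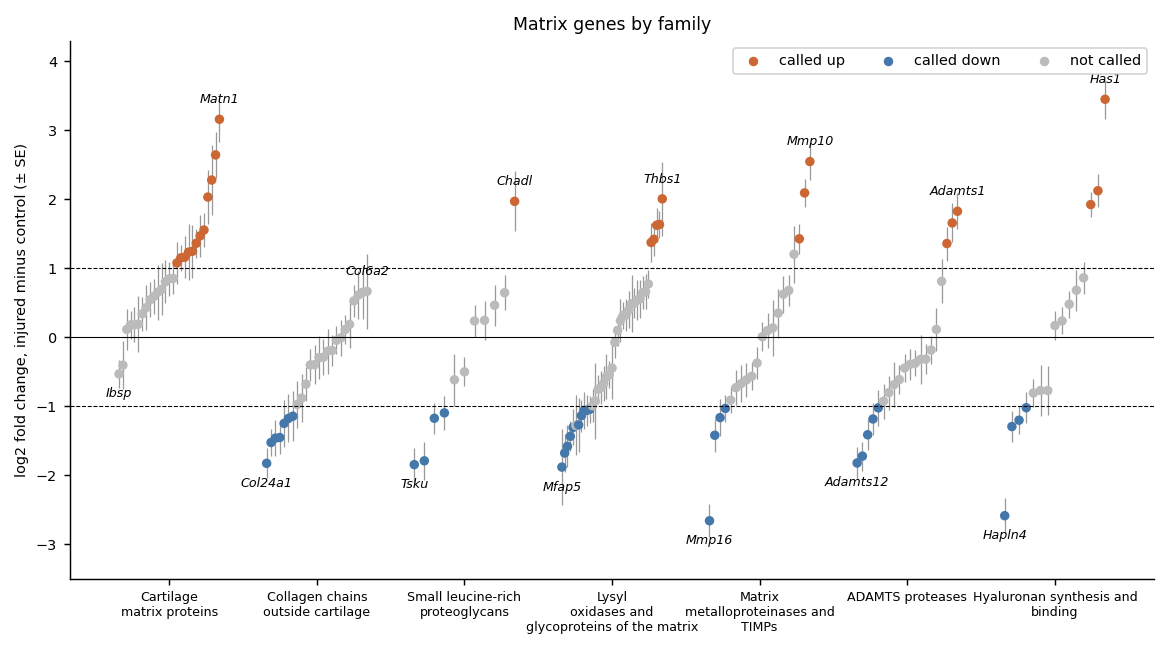
Log2 fold change (injured minus control, with SE) of each measured gene of 7 matrix families in WT cartilage, sorted within a family. Orange and blue mark genes called up and down, grey those not called, and dashed lines the fold limit of 2, with fitted values also for genes undetected in 1 group such as Mmp10. Cartilage matrix proteins have no blue point and collagen chains outside cartilage no orange point.

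Of 37 measured lysyl oxidases and glycoproteins, 10 were downregulated and 5 upregulated (Thbs1, Thbs3, Loxl2, Loxl4 and Nid2). Of these, Nid2, a basement membrane protein, rose by 1.63 (SE 0.25, adjusted p = 0.00130), and Thbs1, a thrombospondin, by 2.01 (SE 0.53, adjusted p = 0.0204), the latter not without injured array 1 of WT, within the arrays whose label code has the number 1 or by the methods' t-test. Col1a2 was at 13.20, 13.15 and 13.04 in control and at 11.16, 11.66 and 12.17 post injury (-1.46, SE 0.26, adjusted p = 0.00280). Col5a2 fell by 1.53 (SE 0.19, adjusted p = 0.000398) and Col24a1 by 1.83 (SE 0.22, adjusted p = 0.000300). Col1a1, the partner chain of Col1a2, did not pass (-0.01, SE 0.26, adjusted p = 0.983) at values between 13.17 and 14.02. Tnc, the tenascin of tendon and perichondrium, was at 13.37, 13.12 and 12.75 in control and at 11.80, 11.55 and 11.57 post injury (-1.44, SE 0.22, adjusted p = 0.00123), with all 4 of its probes passing. The crosslinking enzymes parted: Lox fell by 1.14 (SE 0.23, adjusted p = 0.00567) and Loxl1 by 1.68 (SE 0.27, adjusted p = 0.00168), and Loxl4 rose by 1.64 (SE 0.20, adjusted p = 0.000297). Of 11 small leucine-rich proteoglycans, 4 fell (Lum, Ogn, Podnl1 and Tsku) and 1 rose. Ogn fell by 1.79 (SE 0.27, adjusted p = 0.00121), and Chadl, a member known from cartilage, rose by 1.97 (SE 0.43, adjusted p = 0.00851). Markers of fibroblasts and synovial lining moved with these genes. Of 17 measured, 8 fell and 1 rose, none was undetected on all WT arrays, and their summed antilog level, in units of 1000, was 35.1 to 51.7 in control and 31.1 to 33.98 post injury. Some genes stand on both lists (Col1a2, Col3a1, Lum, Fbln1 and Col14a1), and the part of these cells in the fall was not tested. Without control array 1 or injured array 1 of WT, 4 collagens fell in place of 7. The 10 downregulated lysyl oxidases and glycoproteins became 6 and 5, and the 8 fibroblast markers 4 and 5, without the same arrays.

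Proteases and hyaluronan genes changed in both directions. In the ADAMTS list 3 of 20 rose and 5 fell. Adamts12 fell from 9.90, 9.48 and 9.33 to 7.54, 8 and 7.71 (-1.82, SE 0.23, adjusted p = 0.000363), with no overlap of the groups. Of the aggrecanases, Adamts4 was at 8.34, 7.17 and 7.995 in control and at 9.49, 9.52 and 9.46 post injury (log2 fold change 1.66, SE 0.28, adjusted p = 0.00234), and Adamts5 did not pass (-0.38, SE 0.19, adjusted p = 0.178). Of the collagenases and stromelysins, Mmp3 missed the adjusted p (1.20, SE 0.41, adjusted p = 0.0558) and Mmp13 both limits (0.62, SE 0.27, adjusted p = 0.119) from control values of 13.11 to 14.03 at its main probe, while 1 of its 3 probes passed downwards. Mmp10 and Mmp25 were undetected in control and at least 1.79-fold and 3.05-fold higher post injury, calls that did not hold after quantile normalization without background correction. Mmp16, a membrane-type enzyme, fell from 10.27, 10.67 and 9.99 to 7.80, 7.34 and 7.82 (-2.66, SE 0.24, adjusted p = 6.28e-05). Timp3, the inhibitor of aggrecanases, rose by 1.43 (SE 0.22, adjusted p = 0.00123). Hyaluronan synthase genes rose: Has1 was at 6.77, 5.80 and 6.44 in control and at 9.41, 10.10 and 9.85 post injury (3.45, SE 0.28, adjusted p = 3.54e-05), and Has2 rose by 1.92 (SE 0.19, adjusted p = 9.57e-05). The hyaluronidase genes Hyal1 and Hyal2 were downregulated, Hyal1 not after quantile normalization without background correction. Of 30 cell surface receptors for the matrix, 2 were upregulated and 2 downregulated. Itga3, an integrin chain for laminins, rose from 6.98, 5.50 and 6.74 to 9.50, 9.91 and 9.84 (3.34, SE 0.35, adjusted p = 0.000131), and the fibronectin receptor chain Itga5 rose by 1.56 (SE 0.24, adjusted p = 0.00135). Plaur, the urokinase receptor, was at 7.76, 8.03 and 7.64 in control and at 10.62, 10.62 and 10.64 post injury (2.82, SE 0.20, adjusted p = 1.25e-05).

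Chemokines held the steepest immune rises. Cxcl1, the main neutrophil attractant of the mouse, was undetected in control (5.24, 3.69 and 5.71) and at 12.17, 13.18 and 12.11 post injury. Cxcl2 was likewise undetected in control and at least 25.1-fold higher, at 10.33, 10.69 and 10.46 (adjusted p = 1.90e-06). Ccl4, an attractant of monocytes, was at 6.999, 7.36 and 6.63 in control and at 12.24, 12.48 and 12.19 post injury (log2 fold change 5.31, SE 0.23, adjusted p = 1.04e-06). Every injured array lay far above every control array. Ccl3 was at least 12.3-fold higher (adjusted p = 2.58e-06), Ccl2 at least 2.80-fold (adjusted p = 5.29e-05), and Ccl7 rose by 3.64 (SE 0.27, adjusted p = 1.91e-05). In total 6 of 17 CXC and 8 of 24 CC genes rose, and 2 and 4 fell. Cxcl9, an interferon-induced attractant of T cells, fell from 9.20, 8.64 and 7.78 to 6.18, 6.85 and 6.58 (-2.002, SE 0.34, adjusted p = 0.00217). Cxcl10, a chemokine of the same kind and list, was upregulated. Cxcl12, the chemokine of marrow stroma, had a difference of -0.85 (SE 0.25, adjusted p = 0.0308) at its main probe, and 2 of its 3 probes passed downwards.
The starts of Cxcl1 (chr5:90891125-90891244, plus strand) and Cxcl2 (chr5:90903779-90903898, plus strand), which neighbour each other, are shown because both hold the same kappa B site, in capitals, 71 and 97 bases before the start.
Cxcl1: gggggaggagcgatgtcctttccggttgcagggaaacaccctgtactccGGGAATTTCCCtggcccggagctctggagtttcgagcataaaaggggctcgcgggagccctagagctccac
Cxcl2: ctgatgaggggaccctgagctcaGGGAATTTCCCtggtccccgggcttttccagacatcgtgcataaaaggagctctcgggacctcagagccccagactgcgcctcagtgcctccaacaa
The capitals cover 2 overlapping matches, 1 on each strand. A kappa B site was found in 4.51% of all promoters, 5.25% of those of the genes tested, 8.19% of those of upregulated genes (80 of 977) and 4.90% of those of downregulated genes (42 of 858). The AP-1 site (TGAGTCA or TGACTCA) was found in 5.20%, 4.07%, 6.86% and 4.31% of the same sets. Promoters of a gene with several starts overlap and are not independent.

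**Figure D4:**
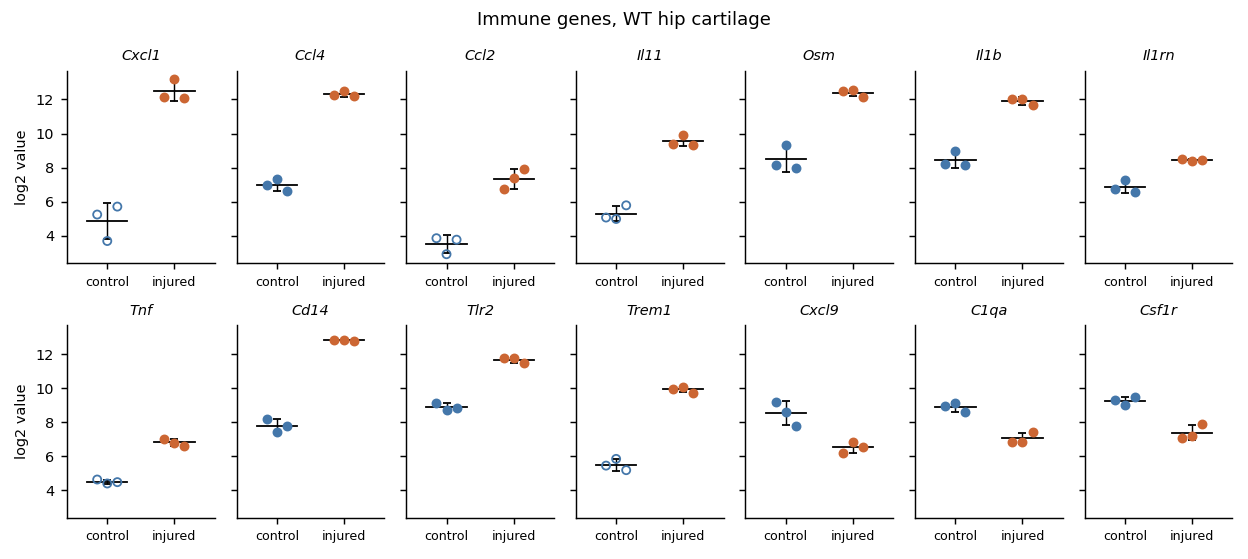
Log2 values of 14 immune genes on the 3 control (blue) and 3 injured (orange) WT arrays. Points are arrays, open where the probe was undetected on every array of the group, black lines are means and bars are SD over 3 arrays. The first 11 genes are higher on every injured array, and Cxcl9, C1qa and Csf1r are lower.

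Of 17 measured genes of the IL-6 family and gp130, 5 were upregulated (Il6, Lif, Il11, Osm and Osmr), none was downregulated and 12 were not called. Osmr was not called without injured array 2 of WT, within the arrays whose label code has the number 1 or with quantile normalization without background correction. Il11, which acts on stromal cells and chondrocytes, was undetected in control (5.07, 4.98 and 5.78) and stood at 9.399, 9.90 and 9.34 post injury, at least 12.99-fold higher (adjusted p = 5.91e-06). Osm, a product of myeloid cells, was at 8.18, 9.35 and 7.95 in control and at 12.52, 12.54 and 12.16 post injury (log2 fold change 3.92, SE 0.33, adjusted p = 4.37e-05). Lif was at least 1.71-fold higher (adjusted p = 0.00262), not so after quantile normalization without background correction. Il6 passed the thresholds but was undetected on all 6 arrays, and no fold is given. The shared receptor chain Il6st did not pass (-0.27, SE 0.23, adjusted p = 0.432). In the IL-1 family 7 of 20 rose and none fell. Il1b was at 8.20, 8.99 and 8.17 in control and at 12, 12.05 and 11.65 post injury (3.45, SE 0.26, adjusted p = 2.09e-05). The members that oppose it rose too: Il1rn, the receptor antagonist, by 1.59 (SE 0.22, adjusted p = 0.000754), and Il1r2, the decoy receptor, by 4.23 (SE 0.34, adjusted p = 3.08e-05), the latter detected on 1 of 3 control arrays. Il1rl1, the receptor of IL-33, rose from 7.15, 6.80 and 6.44 to 10.59, 11.22 and 10.64 (4.02, SE 0.25, adjusted p = 6.87e-06), and Il33, undetected on all control arrays, did not pass (adjusted p = 0.335). The signalling receptor Il1r1 did not pass (-0.13, SE 0.21, adjusted p = 0.697).

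In the TNF superfamily 9 of 31 members rose and 3 fell. Tnf was undetected in control and at least 1.96-fold higher post injury (adjusted p = 4.82e-05), a call that ended after quantile normalization without background correction. Tnfrsf12a, the receptor of TWEAK, rose from 8.20, 7.598 and 8.598 to 10.79, 10.98 and 10.98 (2.79, SE 0.26, adjusted p = 7.61e-05). Genes of the RANK system, which sets osteoclast formation, differed in direction. Tnfrsf11b, the decoy osteoprotegerin, rose by 1.68 (SE 0.26, adjusted p = 0.00144), Tnfrsf11a, the receptor RANK, fell from 8.86, 8.83 and 8.18 to 5.58, 5.43 and 5.93 (-2.98, SE 0.25, adjusted p = 3.56e-05) and was detected on 1 of 3 injured arrays, and the ligand Tnfsf11 did not pass (-0.66, SE 0.24, adjusted p = 0.0731). Osteoclast markers moved with Tnfrsf11a, which is one of them: 4 of 10 fell and none rose, and the summed antilog level was 22.1 to 34.7 in control and 16.3 to 21.7 post injury. All 10 were detected on a WT array, the defining markers Ocstamp and Calcr are not in the table, and the part of these cells was not tested.

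Innate receptors and complement differed in direction among the genes called. Of 22 Toll-like receptors and innate sensors, 8 rose and none fell. Cd14, the co-receptor for lipopolysaccharide, was at 8.22, 7.45 and 7.78 in control and at 12.83, 12.86 and 12.80 post injury (log2 fold change 5.01, SE 0.23, adjusted p = 1.13e-06). Tlr2 rose by 2.78 (SE 0.21, adjusted p = 2.01e-05) and Tlr4 did not pass (0.30, SE 0.21, adjusted p = 0.335). The myeloid receptor gene Trem1 was at least 16.99-fold higher (adjusted p = 1.95e-06), and Clec4d, a C-type lectin, rose by 3.64 (SE 0.21, adjusted p = 3.52e-06). Of 21 complement genes, 9 fell and none rose. C1qa was at 8.96, 9.16 and 8.59 in control and at 6.88, 6.86 and 7.42 post injury (-1.85, SE 0.24, adjusted p = 0.000461), and C1qb and C1qc fell by 1.90 and 2.18. C3 missed the fold limit in the other direction (0.96, SE 0.25, adjusted p = 0.0179). Interferon-response genes stayed near the background, with 3 of 44 down (6 without WT control replicate 3) and none up. Irf1 (-0.06, SE 0.23, adjusted p = 0.868) and Isg15 (-0.34, SE 0.34, adjusted p = 0.506) overlapped between groups, and Irgm2 fell by 1.77 (SE 0.20, adjusted p = 0.000198). Of the adhesion molecules 6 of 20 rose, among them Icam1 (1.47, SE 0.26, adjusted p = 0.00261) and Selp, the P-selectin of endothelium and platelets (1.68, SE 0.29, adjusted p = 0.00261).

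Neutrophil markers moved with the immune genes. Of 16 measured neutrophil markers, 11 rose and none fell (median log2 fold change 1.68), and none was undetected on the WT arrays. Of the granule genes, Elane was at 10.90, 11.55 and 11.28 in control and at 13.28, 13.37 and 12.98 post injury (1.96, SE 0.23, adjusted p = 0.000260), and Fcnb rose (2.33, SE 0.28, adjusted p = 0.000300). The granule genes Camp and Ltf of the same list were not called. S100a8 (0.32, SE 0.25, adjusted p = 0.384) and Mpo (0.67, SE 0.26, adjusted p = 0.0877, though 3 of its 4 probes passed) did not pass at the main probe. The summed antilog level of the list was 63.3 to 107 in control and 157 to 186 post injury. Cxcr2, Cebpe, Trem1 and Il1b are genes that neutrophils are known to express, and the part of these cells in their rise was not tested. Macrophage markers did not move together: of 19, Cd14, Fcgr3 and Tyrobp rose and 9 fell, among them Csf1r (-1.88, SE 0.26, adjusted p = 0.000648), Mrc1 (-1.44, SE 0.21, adjusted p = 0.000962) and the C1q genes, which are on both lists. Their summed level was 13.1 to 18.2 in control and 26.1 to 29.3 post injury, or 12.9 to 18.1 and 19.0 to 22.0 without Cd14. Fcgr1, which is counted among the 9, and Clec10a were undetected throughout. In whole tissue, fewer cells of a type and less RNA per cell cannot be told apart.

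**Figure D5:**
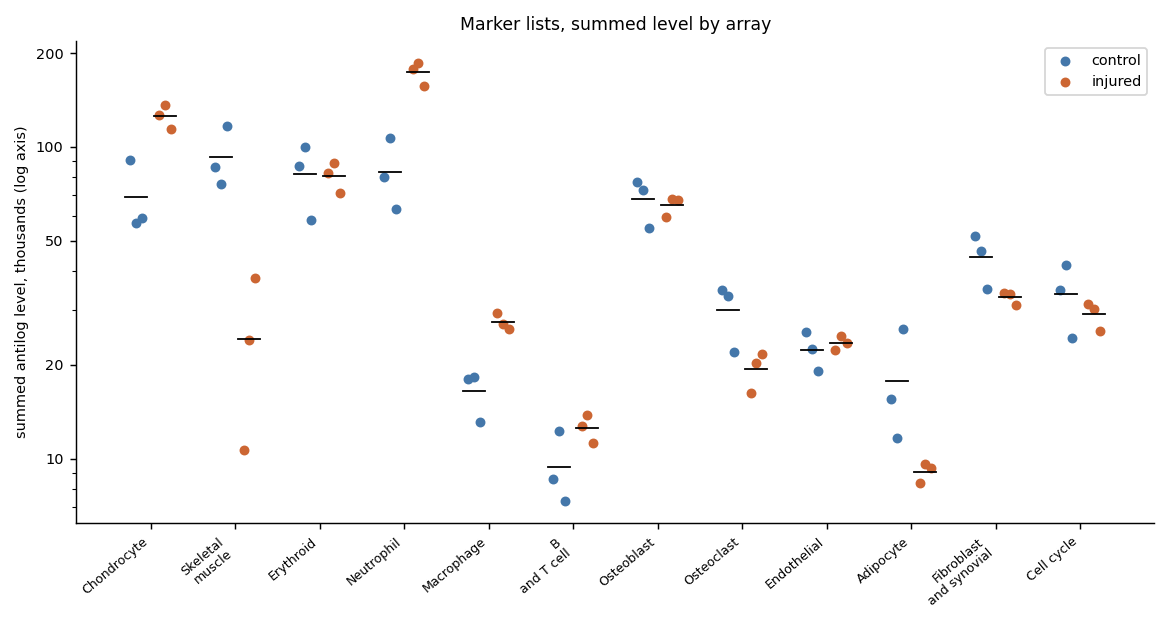
Summed antilog level of each marker list on the 3 control (blue) and 3 injured (orange) WT arrays, in units of 1000 on a log axis, with black lines at the means. Skeletal muscle lies between 76.0 and 117 in control and between 10.7 and 37.9 post injury, and neutrophil and chondrocyte lists are higher on every injured array.

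Muscle genes such as Actc1, Actn3, Myoz1 and Ankrd23 were among the 10 largest falls of genes detected on all 6 WT arrays. Of 20 measured skeletal muscle markers, 17 fell and none rose (median log2 fold change -2.63), and their summed level ranged widely within each group, from 76.0 to 117 in control and from 10.7 to 37.9 post injury. Actn3, a structural protein of fast fibres, was at 11.05, 10.27 and 12.98 in control and at 6.77, 7.94 and 8.88 post injury (-3.57, SE 0.66, adjusted p = 0.00347). Of the 17, 9 fell without control array 1 or injured array 1 of WT, and 10 without WT injured replicate 2. With the replicate number as a block, the actin gene no longer passed (Acta1, log2 fold change -1.61, adjusted p = 0.0394 without the block and 0.0628 with it). Of 12 adipocyte markers 4 fell and 1 rose (Dgat2), and 7 were not called. Cfd, which is also a complement gene, fell from 11.45, 10.45 and 12.41 to 6.85, 7.65 and 8.88 (-3.65, SE 0.54, adjusted p = 0.00107). Plin1, an adipocyte marker, was undetected on all WT arrays. Endothelial markers (2 of 17 up, 1 down), B and T cell markers (2 of 15 up, or 5 without WT control replicate 2, and 1 down) and cell cycle genes (1 of 22 down) were near the background. Erythroid markers had 4 of 15 down, or 8 without WT control replicate 3, and osteoblast markers 3 of 12 down.

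Some of the largest rises fell on genes outside the themes above. By the rule for genes detected on all 6 WT arrays, the largest was Hspa1a, an inducible heat shock protein gene, at 6.75, 6.55 and 6.85 in control and at 12.76, 12.87 and 12.43 post injury (log2 fold change 5.97, SE 0.21, adjusted p = 4.50e-07), with all 3 of its probes passing. Trib3, a target of the ATF4 stress pathway, rose by 4.17 (SE 0.20, adjusted p = 1.48e-06), and Arc, an early gene best known from neurons, by 4.05 (SE 0.21, adjusted p = 1.95e-06). Hcar2, a receptor for hydroxybutyrate on myeloid and fat cells, rose by 4.91 (SE 0.22, adjusted p = 1.10e-06). No injured value of these genes lay near the control values.

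Whether the response depended on JNK2 was asked with the arrays of mice without Mapk9. The main Mapk9 probe lay between 10.05 and 10.90 on the WT arrays and between 8.70 and 9.28 on the KO arrays, where it stayed detected, and a second probe was undetected on all 6 KO arrays. With limma, 0 of 14280 genes passed the test of the difference between the injury effects (0.0%), and 1247 had an unadjusted p under 0.05. With the replicate number as a block 60 passed. Of these 60, Fgfr3 and Clcf1 stand on the lists described here. Clcf1, a ligand of the gp130 group that was undetected on all WT control arrays, had a log2 fold change of 0.65 in WT and 3.50 in KO, and Fgfr3 of 0.03 in WT and 2.24 in KO (adjusted p = 0.0368 and 0.0137 with the block, 0.267 and 0.312 without it). For Clcf1 the WT value is a fitted one measured from below detection, and the difference between genotypes rests on it. Of the 2100 genes called in WT, 1678 were called in the same direction in KO (79.9%), which is 63.1% of the 2658 genes called in KO, and 1 was called in the opposite direction. Fos had a log2 fold change of 2.32 in WT and 3.41 in KO, Acan of 2.03 and 2.18, and Igf1 of -2.04 and -2.49, each against the controls of its own genotype.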

How the data were processed

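RNA of WT hip cartilage was hybridised to Illumina mouse BeadChip arrays, 3 per group. The authors background-corrected the probe intensities with the negative control probes, applied vsn and deposited log2 values of 21004 probes. The intensity and detection p-value of each probe, before normalization, were deposited in a second table, where p under 0.05 was taken as detected.

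Probes were named through RefSeq accessions (14355 probes) or symbols, and 173 whose names in the files disagreed were left out. The log2 values were fitted with limma 3.58.1 (R 4.3.3) on the 6 WT arrays, with Benjamini-Hochberg adjustment over all 21004 probes. Each gene was read at its probe with the highest mean over the 12 arrays and called when it changed by more than 2 times with an adjusted p under 0.05. The number of arrays limits the precision. Where no array of a group detected a gene, the fold is a lower bound: the mean of the brighter group over, per array, the higher of the lowest signal among detected probes and the gene's own.

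Members and lists were chosen with earlier results of these data known. Named genes were the 10 largest rises and falls among called genes outside metabolism that were detected on all 6 WT arrays and whose groups did not overlap, each list's defining members and up to 5 called members with the largest change. In the deposited values, WT samples with the same replicate number deviated together from their group means. Correlations were 0.164 to 0.390 for 3 pairs, against -0.275 to 0.0638 for 6 other pairs. Centring on group means by itself pushes the other pairs down once these are up, and KO pairs were not checked. The main fits used no block. The numbers were taken to pair the samples only in the replicate block, an alternative in which WT and KO arrays of a number share a block. On simulated data with independent noise per probe and array (21004 probes, 200 changed 4-fold), 86.9% of the changes were recovered and 3.73% of the calls were false. The real arrays had more calls, smaller changes and shared deviations, so these shares do not carry over to them. Alternatives changed the background correction, normalization, probe filter, array set, block, test and fold limit. Whether replicates were processed on separate days is not given in the sources used here. Some genes are not reported here.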

Additional observations from a re-analysis of the deposited data

How the results depend on the processing

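No upregulated or downregulated call changed direction under the alternatives run. The 1074 upregulated and 1026 downregulated genes became 513 and 362 after quantile normalization without background correction, 679 and 466 by the methods' t-test after Benjamini-Hochberg adjustment, and 1811 and 1821 at a fold limit of 1.5. Leaving out each array in turn gave 982 to 1133 upregulated and 870 to 1168 downregulated genes. Fitted by neqc, with array medians subtracted, with a filter on dim probes, on all 12 arrays, with a block or within the arrays of label code number 1, both counts stayed within 1.5 times. The difference between genotypes was called for 0 genes without the replicate block and 60 with it. Of 384 genes selected by the rule 254 were called, and 125 of these passed in every setting run. Quantile normalization without background correction ended 85 of these calls, the methods' t-test 90, the arrays of label code number 1 alone 30 and neqc 19, and leaving out an array ended 9 to 16. Of 104 list counts, 47 moved by over 1.5 times with that quantile normalization, 41 with the t-test and 3 to 11 when an array was left out. The t-test ended the calls of Fosb, Egr1, Klf5, Sox5, Map3k8, Tgfbr1, Fgf2, Igfbp3, Ccn1, Acan, Comp, Adamts4, Col1a2, Lox, Loxl1, Chadl, Rel, Lif, Cxcl9, Icam1, Selp, C1qb, C1qc, Cfd, Thbs1 and Actn3 among others. The replicate block ended 1 call, Acta1, and added 1. The cause was not tested. Genes near background have only bounds, which limits the size of their changes. Among the genes named, Fosb, Fosl2, Nfkbia, Sox5, Sp7, Egfr, Pdgfra, Igfbp3, Trpv4, Hyal1, Thbs3, Fbln1, Actc1, Dusp4, Mmp13, Cxcl12 and Mpo passed at some of their probes and not at others.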
